A study of Saccharomyces cerevisiae with 47 samples.

Results

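Small nucleolar RNA (snoRNA) genes are described here by the sites of 2 DNA-binding factors, Reb1 and Abf1, mapped before them on yeast DNA. The members were the 76 nuclear genes that the R64 annotation of *Saccharomyces cerevisiae* classes as snoRNA and names SNR followed by digits, of 6430 nuclear genes with a known strand. The rule used annotation only and no measured value. For each member, every distinct deposited site with its centre within 500 bp upstream of the annotated 5′ end was taken, with its distance, strand and score.

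The samples were in vitro reactions. A plasmid library of yeast DNA was assembled with recombinant yeast histone octamers by salt gradient dialysis, incubated with Strep-tagged factor at 50 nM and with a chromatin remodeler where given, crosslinked with formaldehyde and digested with MNase. There were 24 pulldown samples and 23 input samples, and no group had more than 2 replicates. Nothing in the labels says that replicates came from separate assemblies. The reactions of each series held Reb1 or Abf1 with INO80, ISW2 or Chd1 at 24 nM, with RSC at 12 nM or with no remodeler, and controls held neither factor nor remodeler. The deposited values used here were 1 list of sites per factor, 942 for Reb1 and 1365 for Abf1. Neither list names a sample. Replicate spread, sequencing depth and differences between remodelers are therefore not covered by these values, and each 95% interval given is an exact binomial one that covers counting error over genes alone. The labels of the pulldowns also disagree in part: for replicate 2 of the Reb1 pulldowns and replicate 1 of the Abf1 pulldowns, the description names a merged track of the other factor. According to the series text the library carried DNA of chromosomes V to IX, where 14 of the 76 snoRNA genes lie. For the other 62 genes no source used here says whether their DNA was in the reactions.

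Reb1 and Abf1 are general regulatory factors that bind defined sequence motifs in many yeast promoters and help to keep nucleosomes away from them. Box H/ACA snoRNAs guide the conversion of uridines to pseudouridines and box C/D snoRNAs guide ribose methylation, mostly in ribosomal RNA, and a few members of each family are needed for cleavage of the rRNA precursor. Yeast snoRNAs are made from genes with their own promoter, from clusters that share a promoter, or from introns of protein-coding genes, and for most genes with their own promoter that promoter is of RNA polymerase II. By box family, which was assigned from general knowledge and not from the files, the members were 29 H/ACA and 47 C/D genes. By position, 51 were independent, 17 lay in 5 clusters on 1 strand each with gaps of at most 500 bp, and 8 lay inside a protein-coding gene on the same strand. All 17 clustered genes were C/D genes. The independent genes were 27 H/ACA and 24 C/D genes, and the intronic ones were 2 H/ACA and 6 C/D genes.

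Reb1 sites lay before 16 of the 76 snoRNA genes (21.1%, 95% interval 12.5 to 31.9), against 12.5% of protein-coding genes (753 of 6002) and 12.2% of all genes. They lay chiefly before H/ACA genes, which had 12 of the 16. Abf1 sites lay before 9 snoRNA genes (11.8%, 5.56 to 21.3), against 13.5% of protein-coding genes (809 of 6002) and 13.0% of all genes, a share near the background in this window. It was below the protein-coding share with a window of 300 bp (3 genes, 3.95%, 0.822 to 11.1, against 9.6%). The same held with sites listed in at least 2 rows (3.95% against 10.9%) and with each site given to its nearest gene only (6.58% against 10.6%). It was above that share with 1000 bp (19.7% against 18.7%) and on chromosomes V to IX (14.3% against 11.8%). Counted by transcription unit it was also above (14.3% against 13.5%). A site of either factor was present at 24 snoRNA genes (31.6%, 21.4 to 43.3), against 24.7% of protein-coding genes and 23.9% of all genes. Both of these shares lie inside the interval. The difference from protein-coding genes was smaller with sites listed in at least 2 rows (21.1% against 20.4%) and with 300 bp (21.1% against 18.3%). It was larger with 1000 bp (43.4% against 31.5%) and by transcription unit (39.3% against 24.7%). Only SNR3 had sites of both factors (1.32% of snoRNA genes), against 1.35% of protein-coding genes and 1.28% of all genes. The tRNA genes, which are also short and non-coding but are read by RNA polymerase III, had Reb1 sites in 2.91% of cases (8 of 275), Abf1 sites in 3.27% (9 of 275) and a site of either factor in 6.18%. No site of either factor had its centre inside a snoRNA gene. Distances to a snoRNA gene run to the annotated RNA end, whereas those to a protein-coding gene run to the start codon. The 2 kinds of distance are therefore not the same measure. Neither end need be the start of transcription, and how far it lies from that start was not measured, for either box family.

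The split by box family was seen for Reb1. Among H/ACA genes 12 of 29 had an upstream Reb1 site (41.4%, 23.5 to 61.1), and among C/D genes 4 of 47 had one (8.51%, 2.37 to 20.4). Of these 4, SNR41 and SNR70 share the same site, whereas the interval takes genes as independent. Clustered and intronic genes are mostly C/D genes and have little upstream sequence of their own, so the independent genes were compared alone. There, 12 of 27 H/ACA genes (44.4%, 25.5 to 64.7) and 1 of 24 C/D genes (4.17%, 0.105 to 21.1) had a Reb1 site. The corresponding Abf1 counts were 4 of 27 (14.8%, 4.19 to 33.7) and 3 of 24 (12.5%, 2.66 to 32.4). These are counts over an annotated list and no test of the difference between the families was made.

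**Figure D1:**
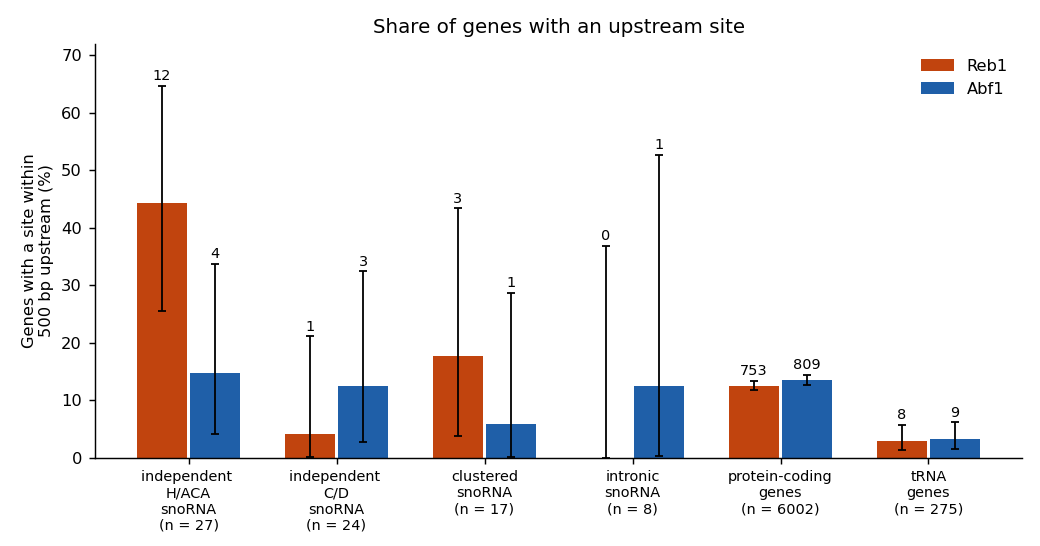
Percentage of genes with at least 1 Reb1 or Abf1 site within 500 bp upstream, for 4 classes of snoRNA genes, protein-coding genes and tRNA genes. Bars are shares, error bars exact 95% binomial intervals, and the numbers above them the genes with a site. Independent H/ACA genes had a Reb1 share of 44.4% and independent C/D genes one of 4.17%, while their Abf1 shares were 14.8% and 12.5%.

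By the median, upstream sequence of their own was shorter at independent H/ACA genes than at independent C/D genes. The gap to the nearest annotated gene upstream had a median of 355 bp at independent H/ACA genes and 465.5 bp at independent C/D genes, against 423 bp at protein-coding genes. Among genes with a gap of at least 200 bp, a limit chosen once the values were known, as was the split by neighbour that follows, Reb1 sites lay before 11 of 25 H/ACA genes and 1 of 21 C/D genes (4.76%), against 712 of 5410 protein-coding genes (13.2%). Reb1 sites were found at H/ACA genes with either orientation of the upstream neighbour, counted with no limit on the gap. Of the independent H/ACA genes, 5 of 11 with a divergent protein-coding neighbour had a Reb1 site, as did 6 of 11 with a tandem neighbour. Of the 5, the sites of SNR42 and SNR85 alone were also within 500 bp of the neighbour's start codon. The C/D counts were 0 of 10 and 1 of 13. The tandem counts took neighbours of any kind, the divergent ones protein-coding neighbours alone. With divergent neighbours of any kind, the H/ACA count was 5 of 15. The genes this adds, SNR161, SNR46, SNR31 and SNR5, had no Reb1 site within 500 bp. SNR10, which had a site, overlaps its neighbour and stands in neither group. Protein-coding genes were not split by neighbour. Whether the gap or the neighbour bears on the Reb1 sites was not tested.

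By share, a nearby Reb1 site was more frequent at H/ACA genes than at protein-coding genes. So was any Reb1 site within 500 bp (41.4% against 12.5%). Distances run to the RNA end for the former and to the start codon for the latter, so they are not the same measure. At a distance of at least 100 bp and under 200 bp, a Reb1 site was found in 9 of the 29 H/ACA genes (95% interval 15.3 to 50.8%) and in 0 of the 47 C/D genes (upper bound 7.55%), against 6.33% of protein-coding genes, 6.10% of all genes and 0 of 275 tRNA genes. Among independent genes alone the counts were 9 of 27 H/ACA genes (16.5 to 54.0%) and 0 of 24 C/D genes (upper bound 14.2%). Both C/D bounds lie above the protein-coding share. Counted over sites, 9 of the 14 distinct Reb1 sites at H/ACA genes lay in that range (64.3%), against 341 of 641 before protein-coding genes (53.2%), so most sites of both kinds lay there. Ordered by their nearest upstream Reb1 site, the independent H/ACA genes fell into 12 with a site at 4 to 282 bp and 15 with none closer than 1455 bp, the distance at SNR36. Beyond 300 bp and up to 1000 bp lay the nearest site of 0 of 27 independent H/ACA genes (upper bound 12.8%), against 420 of 6002 protein-coding genes (7.0%). That share lies inside the bound. These ranges were chosen after the values were seen. At the independent C/D genes the nearest site was 328 bp away at SNR48 and at least 2061 bp away at all others, the last value being that of SNR4.

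**Figure D2:**
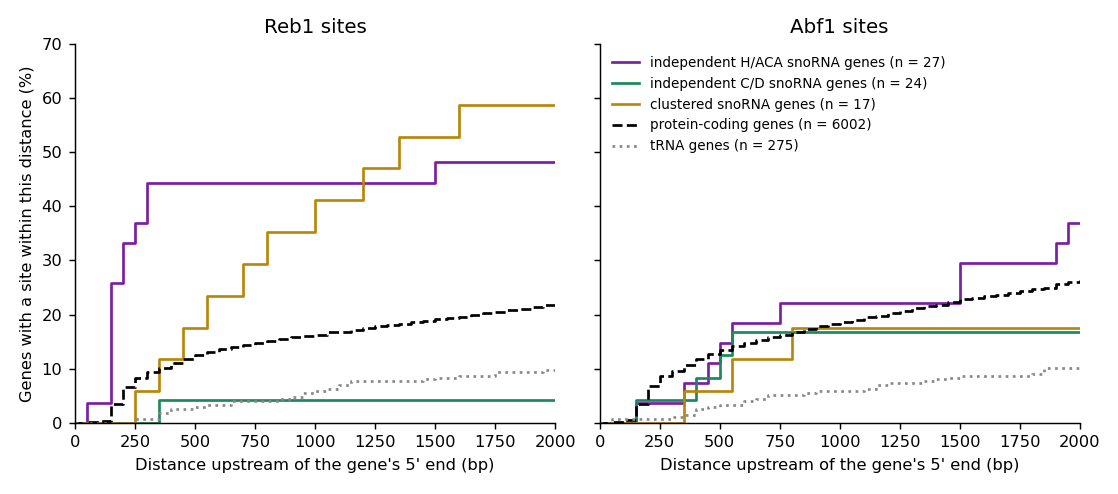
Cumulative percentage of genes with a Reb1 site (left) or an Abf1 site (right) within a given distance upstream, in steps of 50 bp up to 2000 bp. The Reb1 line of independent H/ACA genes reached 44.4% at 300 bp and stayed there to 1000 bp, where that of protein-coding genes was at 16.3% and that of independent C/D genes at 4.17%. Genes of 1 cluster share sites, so the line of clustered genes counts some sites several times.

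Positions below are those of the deposited lists, set against the R64 annotation. Among the H/ACA genes with a Reb1 site, 2 are known for roles in cleavage of the rRNA precursor. SNR30, which is essential and needed to make the small-subunit rRNA, had its Reb1 site 156 bp upstream (chromosome XII, 198624 to 198633, minus strand, score 13.4, listed in 3 identical rows). SNR10, whose RNA guides a pseudouridine and is also needed for normal early cleavage, had its site 139 bp upstream (chromosome VII, 345843 to 345852, minus strand, score 13.5, 2 rows). That site lay inside YGL088W, an annotated protein-coding gene which overlaps the SNR10 5′ end. The remaining snoRNAs known to act in these cleavages, U3 (SNR17A and SNR17B) and U14 (SNR128), are C/D RNAs and had no site of either factor within 500 bp. Their nearest upstream Reb1 sites were 10580, 47733 and 7267 bp away.

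The other H/ACA genes with a Reb1 site encode guides of rRNA pseudouridylation. SNR82, a guide for the large-subunit rRNA, had its Reb1 site 122 bp upstream (chromosome VII, 316662 to 316671, minus strand), with the top score of 14.3 that 39 Reb1 sites share, in 5 rows. SNR189, whose RNA has targets in both ribosomal subunits, had a Reb1 site 114 bp upstream (chromosome III, 178908 to 178917, minus strand, score 13.7, 3 rows). SNR34 had one 130 bp upstream (chromosome XII, 899046 to 899055, minus strand, score 13.7, 4 rows). All of these sites scored above the Reb1 list median of 12.26. SNR3, SNR11, SNR42, SNR84 and SNR86 are, like SNR34, guides for the large-subunit rRNA. SNR3 had a Reb1 site 157 bp upstream (chromosome X, 663588 to 663597, plus strand, score 12.3, 3 rows), at the list median. SNR42 had one 144 bp upstream (chromosome XI, 559506 to 559515, plus strand, score 11.3, 2 rows). SNR84 had one 282 bp upstream (chromosome IV, 1493304 to 1493313, plus strand, score 13.4, 3 rows), the farthest nearest site among H/ACA genes that had a site.

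SNR11 and SNR86 carried 2 Reb1 sites each. At SNR11 the higher-scoring site lay 157 bp upstream (chromosome XIII, 652114 to 652123, minus strand, score 12.8, 3 rows). The other overlapped the annotated start of the RNA, with its centre 4 bp upstream (652267 to 652276, plus strand, score 11.6, 4 rows). It was the only site of either factor closer than 100 bp to a snoRNA gene. At SNR86 a site 116 bp upstream scored 11.4 (chromosome XIII, 763225 to 763234, plus strand, 5 rows) and one 285 bp upstream scored 12.8 (763394 to 763403, minus strand, 3 rows). The farther SNR86 site lay inside RKR1, a ubiquitin ligase gene. The sites of each pair lay on opposite strands, 153 bp apart at SNR11 and 169 bp apart at SNR86.

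SNR83 and SNR85 are guides for the small-subunit rRNA. SNR83 had a Reb1 site 252 bp upstream (chromosome XIII, 626093 to 626102, plus strand, score 13.5, 5 rows). SNR85 had one 236 bp upstream (chromosome XIII, 68170 to 68179, minus strand, score 11.5, 1 row), which was nearer to the divergent gene CAC2.

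**Figure D3:**
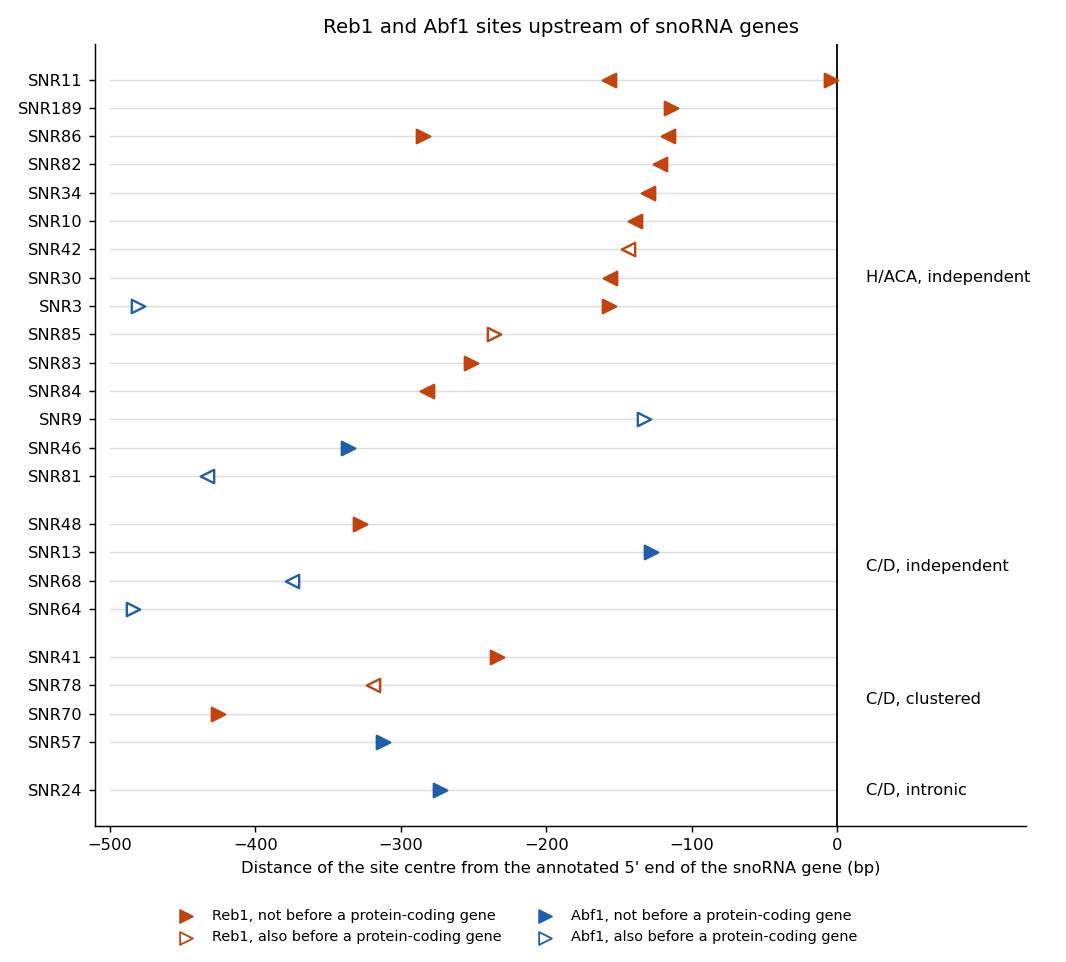
Position of every Reb1 and Abf1 site within 500 bp upstream of a snoRNA gene, in bp from the annotated 5′ end, for the 24 genes with a site, grouped by box family and position. Triangles point right where the motif is on the strand of the gene and left where it is on the other strand, and open triangles are sites also within 500 bp upstream of a protein-coding gene. Of the Reb1 sites, 9 of 17 lay at least 100 bp and under 200 bp upstream, all of them at H/ACA genes (52.9%), against 53.2% of the Reb1 sites before protein-coding genes.

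C/D genes had 3 Reb1 sites, none within 200 bp. The only independent one was SNR48, a guide of rRNA ribose methylation, with a site 328 bp upstream (chromosome VII, 609252 to 609261, plus strand, score 13.7, 4 rows). The others lay before clusters. SNR41, SNR70 and SNR51 form a cluster on the minus strand, in that order of transcription, and share the site 234 bp upstream of SNR41 (chromosome XVI, 719472 to 719481, minus strand, score 11.2, 3 rows). The same site was 426 bp from SNR70 and 670 bp from SNR51, so 2 of the 3 genes counted within 500 bp. SNR78 opens the cluster of 7 genes that runs through SNR77, SNR76, SNR75, SNR74 and SNR73 to SNR72. Its Reb1 site was 319 bp upstream (chromosome XIII, 296955 to 296964, minus strand, score 12.9, 1 row), and the next gene, SNR77, was 547 bp from it, just outside the window. The first genes of the clusters SNR67 with SNR53, and SNR190 with SNR128, had no site of either factor. Counted by transcription unit, with the first gene for each cluster and no intronic genes, 15 of 56 units had a Reb1 site (26.8%) and 8 of 56 an Abf1 site (14.3%).

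Most Reb1 sites before snoRNA genes belonged to no protein-coding promoter within 500 bp. Of the 17 distinct Reb1 sites, 3 were also upstream of a protein-coding gene. The SNR42 site was 156 bp from TFA2, which encodes a TFIIE subunit, the SNR85 site 120 bp from CAC2, a subunit gene of chromatin assembly factor 1, and the SNR78 site 221 bp from SEC59, the dolichol kinase gene. With 1000 bp allowed before the protein-coding gene, 9 of the 17 sites were shared. The shared sites were listed in 1, 1 and 2 rows, and each of the 14 others in at least 2 rows.

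Of the 9 Abf1 sites before snoRNA genes, 5 were also upstream of a protein-coding gene. The median distance of all 9 was 336 bp (range 128 to 484), against 194.5 bp for the 716 Abf1 sites before protein-coding genes. That median depended on the window and was 133 bp over the 3 sites within 300 bp and 457 bp over the 14 within 1000 bp. The median of the 17 Reb1 sites was 157 bp (range 4 to 328, with the SNR41 distance taken for the shared site), against 186 bp for the 641 Reb1 sites before protein-coding genes. Within 200 bp, 2 Abf1 sites were found. SNR13, an independent C/D guide gene, had a site 128 bp upstream (chromosome IV, 1402784 to 1402799, plus strand, score 11.3, 4 rows), which was upstream of no other gene within 500 bp. SNR9, an H/ACA gene, had a site 133 bp upstream (chromosome XV, 408260 to 408275, minus strand, score 13.2, 1 row), which was also 158 bp from the divergent gene CUE5.

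The other Abf1 sites of H/ACA genes were more than 300 bp away. SNR46 had one at 336 bp (chromosome VII, 545027 to 545042, plus strand, score 12.2, 1 row), also 386 bp from a divergent tRNA gene. SNR81, whose RNA guides changes in rRNA and in a spliceosomal RNA, had one at 433 bp (chromosome XV, 233906 to 233921, minus strand, score 12.4, 3 rows), 277 bp from SPE2, the S-adenosylmethionine decarboxylase gene. SNR3 had one at 481 bp (chromosome X, 663261 to 663276, plus strand, score 15.0, 3 rows), 324 bp from its Reb1 site. That Abf1 site was the highest-scoring of the 9. It lay inside YJR128W, an annotated protein-coding gene, and 209 bp upstream of RSF2, so its nearest start was not that of SNR3.

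Of the C/D genes, SNR68 had an Abf1 site at 375 bp (chromosome IX, 96729 to 96744, minus strand, score 14.2, 1 row), 11 bp from YIL134C-A and 361 bp from VHS2. SNR64 had one at 484 bp (chromosome XI, 38320 to 38335, plus strand, score 14.1, 1 row), 174 bp from the tryptophan synthesis gene TRP3. SNR57, the first gene of the cluster with SNR55 and SNR61, had one at 312 bp (chromosome XII, 795329 to 795344, minus strand, score 11.4, 1 row). All 5 Abf1 sites shared with a protein-coding gene scored above the Abf1 list median of 11.98, and 1 of the 4 unshared ones did.

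Intronic snoRNA genes had 1 site upstream, an Abf1 site 273 bp before SNR24 and inside its host gene ASC1 (chromosome XIII, 500338 to 500353, minus strand, score 11.9, 1 row). The Abf1 share of the 8 intronic genes was thus 12.5%, near the 13.0% of all genes. The host genes are SNR18 in EFB1, SNR24 in ASC1, SNR38 in TEF4, SNR39 in RPL7A, SNR44 in RPS22B, SNR54 in IMD4, SNR59 in RPL7B and SNR191 in NOG2. All but IMD4 and NOG2 encode translation factors, ribosomal proteins or a ribosome-bound protein. Of the 8 hosts, 0 had a Reb1 site within 500 bp of the start codon and 2 had an Abf1 site. The 95% intervals were wide, with an upper bound of 36.9% for Reb1 and 3.19 to 65.1% for Abf1. Both hold the protein-coding shares of 12.5% and 13.5%, so these counts do not set the hosts apart from other protein-coding genes. EFB1 had its Abf1 site 343 bp upstream (chromosome I, 141824 to 141839, plus strand, score 14.8, 5 rows), which is the site 536 bp before SNR18 and so just outside the window of that gene. NOG2, a ribosome assembly GTPase gene, had its Abf1 site 201 bp upstream (chromosome XIV, 723306 to 723321, plus strand, score 13.2, 4 rows), 1102 bp before SNR191.

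Near the edge of the window, the farthest members inside were SNR64 at 484 bp and SNR3 at 481 bp for Abf1 and SNR70 at 426 bp for Reb1. The nearest outside were SNR30 at 531 bp, SNR18 at 536 bp, SNR55 at 542 bp and SNR65 at 549 bp for Abf1, and SNR77 at 547 bp for Reb1.

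Scores and row numbers of the member sites were set beside those of sites before protein-coding genes. The score is the authors' own, with no definition, and is used only within a list, as is the number of identical rows, whose meaning is not stated. The 17 Reb1 sites had a median score of 12.9 (range 11.2 to 14.3), and 12 of them (70.6%) were at or above the list median, against 56.6% of Reb1 sites before protein-coding genes. In at least 3 rows stood 13 of the 17 (76.5%), against 57.1%. The 9 Abf1 sites had a median score of 12.4 (range 11.3 to 15.0), and 6 (66.7%) were at or above the list median, against 63.5%. In 1 row only stood 6 of the 9 Abf1 sites (66.7%), against 18.7% of those before protein-coding genes, and 3 of the 9 (33.3%) were in at least 3 rows, against 62.3%. The share in at least 3 rows was thus above the protein-coding one for Reb1 and below it for Abf1, with no test made.

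**Figure D4:**
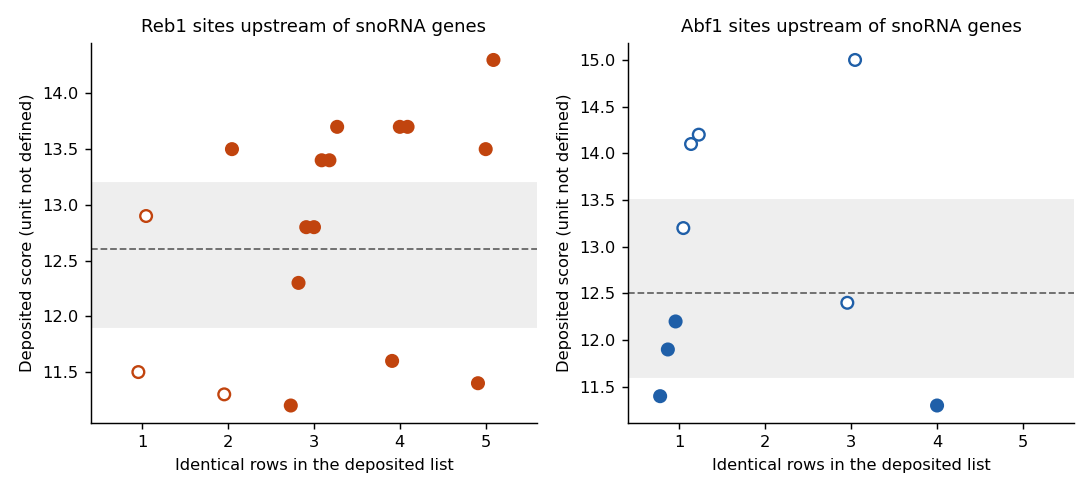
Deposited score against the number of identical rows for the Reb1 sites (left, 17 sites) and Abf1 sites (right, 9 sites) upstream of snoRNA genes, points spread sideways within a row number. Open points are sites also upstream of a protein-coding gene, the grey band spans the quartiles and the dashed line the median of sites before protein-coding genes. The 3 shared Reb1 sites stand in 1 or 2 rows, and 6 of the 9 Abf1 sites stand in 1 row.

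Motif strand showed no common direction at the Reb1 sites. The Reb1 motif was on the strand of the snoRNA gene in 9 of 18 pairs of site and gene (50.0%), against 47.2% at protein-coding genes, and in 6 of 14 pairs at H/ACA genes (42.9%). For Abf1 it was on the gene's strand in 7 of 9 pairs (77.8%), against 49.8% at protein-coding genes.

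On chromosomes V to IX the members numbered 14, of which 5 were H/ACA genes. Reb1 sites lay before 3 of them, SNR82, SNR10 and SNR48, all on chromosome VII (21.4%), against 13.3% of the 1465 protein-coding genes there. Abf1 sites lay before 2, SNR46 on chromosome VII and SNR68 on chromosome IX (14.3%), against 11.8%. By box family the Reb1 counts were 2 of 5 H/ACA genes and 1 of 9 C/D genes. Among independent genes alone they were 2 of 5 (40.0%) and 1 of 6 (16.7%).

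Spliceosomal snRNA genes, some of which share the SNR name, are no snoRNA genes and were counted apart, as 6 annotated entries. Abf1 sites lay before the U2 gene LSR1 (231 bp), the U4 gene SNR14 (134 bp) and the U5 gene, whose long and short forms SNR7-L and SNR7-S have 1 start and 1 shared site (143 bp). The U1 gene SNR19 had a Reb1 site (151 bp), and the U6 gene SNR6 had no site.

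Genes for snoRNP proteins and for factors of snoRNA assembly and processing, a list of 34, had a Reb1 site in 8 cases (23.5%, 10.7 to 41.2) and an Abf1 site in 8 (23.5%), against the protein-coding shares of 12.5% and 13.5% given above. Either factor was present at 14 (41.2%, 24.6 to 59.3), against 24.7% of protein-coding genes. Both were present at 2, NOP56 and NHP2 (5.88%, 0.72 to 19.7), against 1.35%. Each of these protein-coding shares lies inside the interval of the list. Several of these genes are also ribosome biogenesis genes. Of the C/D core proteins, the methyltransferase gene NOP1 had an Abf1 site 285 bp upstream and NOP58 one 165 bp upstream. NOP56 had an Abf1 site at 184 bp and a Reb1 site at 207 bp, and SNU13 had none. Of the H/ACA core proteins, NHP2 had an Abf1 site at 152 bp and a Reb1 site at 170 bp in the promoter shared with CWC2, while CBF5, the pseudouridine synthase gene, GAR1 and NOP10 had none.

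Assembly factor genes had Reb1 sites in 3 of 9 cases and no Abf1 site. BCD1, which acts on C/D particles, had a Reb1 site 122 bp upstream, NAF1, which acts on H/ACA particles, one at 151 bp, and RVB1, an ATPase of the assembly machinery, one at 166 bp. Among 11 processing and transcription genes, the exonuclease gene RAT1 had a Reb1 site (144 bp), and LHP1 (220 bp), XRN1 (452 bp) and NRD1 (446 and 465 bp) had Abf1 sites. RNT1, DBR1, TGS1, RRP6, NAB3, SEN1 and TBF1 had none. The intervals of these 11 genes, 0.23 to 41.3% for Reb1 and 6.02 to 61.0% for Abf1, also hold the protein-coding shares. TBF1 encodes a factor known to bind the promoters of many yeast snoRNA genes. Of 5 genes for proteins of the U3 particle, SOF1 had an Abf1 site (127 bp) and IMP4 a Reb1 site (179 bp). That is 20.0% for each factor (0.505 to 71.6), an interval that again holds the protein-coding shares. KRE33, the RNA acetyltransferase gene whose enzyme is guided by the C/D RNAs SNR4 and SNR45, had a Reb1 site (204 bp). SNR4 and SNR45 themselves had no site within 500 bp.

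**Figure D5:**
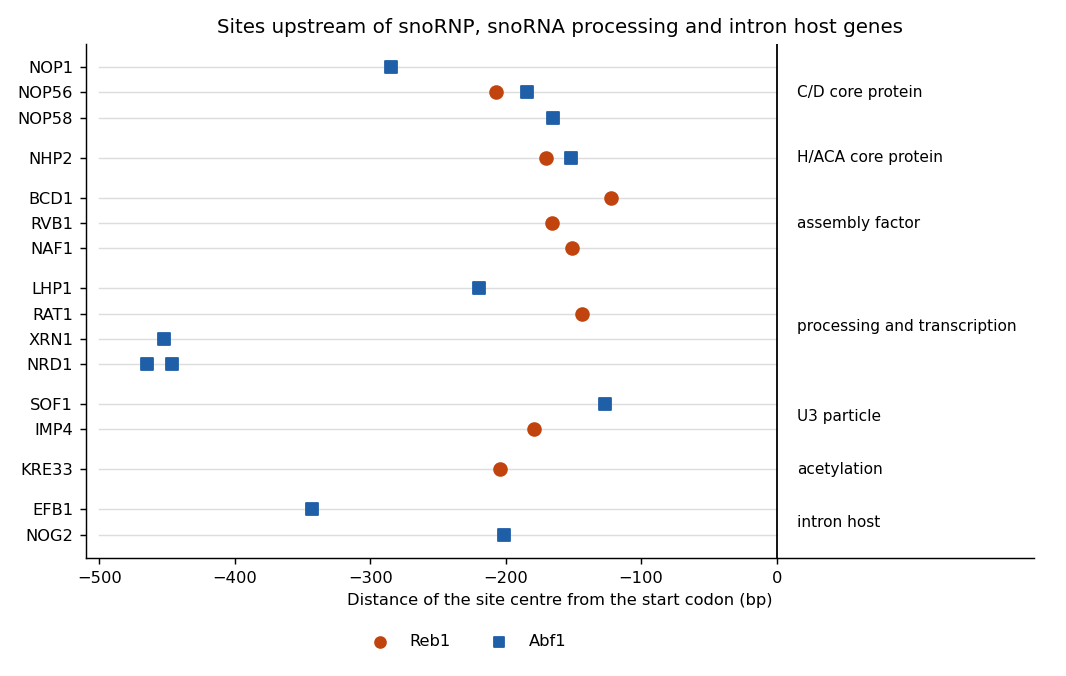
Position of Reb1 sites (circles) and Abf1 sites (squares) within 500 bp upstream of the start codon, for the genes of snoRNP proteins, snoRNA assembly and processing factors and intron hosts that had a site. All 8 Reb1 sites lay between 122 and 207 bp, and the Abf1 sites between 127 and 465 bp.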

How the data were processed

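The authors deposited 1 list of sites per factor for the whole series, each site with its position, its strand and a score of unstated definition. Bowtie, sacCer3 and R64 stand in the submitters' processing notes, with no role. No source used here gives the motif scanner, peak caller, thresholds or pooling. Identical rows (up to 5) were merged, which left 942 of 2808 Reb1 and 1365 of 3699 Abf1 rows.

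Genes came from an R64 table of RefSeq genes. Strand was read from the locus tag, and 1 gene without one was left out. A site belonged to every gene with its 5′ end within 500 bp downstream of the site centre. Positions are as deposited, uncertain by 1 bp. Intronic, clustered (gaps of at most 500 bp) and independent genes were told apart by position. All snoRNA, host and list genes with a site were named.

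The members and lists were chosen with earlier results of these data known, so shares are given with exact 95% binomial intervals (scipy 1.17.1) and no test. Placement was tested on simulated data, with 76 of 76 planted sites placed correctly. Promoter motifs were planned but not analysed here. The alternatives are given in the closing section. Counts were made in Python 3.11.15 with pandas 2.3.3 and numpy 2.4.6, and figures were drawn with matplotlib 3.10.9.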

Additional observations from a re-analysis of the deposited data

How the results depend on the processing

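Of 53 alternative values, 42 stayed within 1.5 times the main count or within the spread of the distances. The Reb1 count of 16 lay between 12 and 20 in every setting except chromosomes V to IX, where it was 3 of 14 genes. The Abf1 count of 9 was 3 with 300 bp (3.95% of snoRNA genes against 9.6% of protein-coding genes), 15 with 1000 bp (19.7% against 18.7%), 3 with sites in at least 2 rows (3.95% against 10.9%), 5 with the nearest gene only (6.58% against 10.6%) and 2 on chromosomes V to IX (14.3% against 11.8%). The count for either factor was 5 there. With sites in at least 2 rows that count was 16 (21.1% against 20.4%), and with 1000 bp it was 33 (43.4% against 31.5%). The median Abf1 distance was 133 bp with 300 bp and 457 bp with 1000 bp, as the window sets it. Sites shared with a protein-coding gene numbered 15 of 26 with 1000 bp before that gene, against 8. The Abf1 count of the 34 snoRNP and processing genes was 5 at or above the median score, against 8. Among independent genes, Reb1 counts at H/ACA genes were 10 to 12 of 27 and at C/D genes 0 or 1 of 24 over the settings on all chromosomes. On chromosomes V to IX these counts were 2 of 5 and 1 of 6. No paired analysis was possible because the lists carry no sample, and for the same reason no replicate could be left out. Depth is unknown, so a gene without a site may have one below the authors' thresholds.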
